A study of Mus musculus with 8 samples.

Results

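Chromatin accessibility was examined at 36 mouse genes of glucose metabolism in regulatory T (Treg) cells that had lost folliculin. The genes fall into 6 groups: 3 transporters of glucose and lactate, 9 genes of upper glycolysis, 6 of lower glycolysis, 3 regulators, 7 of the pentose phosphate pathway and 8 of the tricarboxylic acid (TCA) cycle. Each ATAC-seq peak (a region in which a transposase cut open DNA often) was given to the protein-coding gene whose span lay nearest, at most 50000 bp away. This placed 142 of the 57199 deposited peaks at 35 of the 36 genes, and 131 of the 142, at 34 genes, had counts high enough to be tested. Pfkl had no peak, and the 2 peaks given to Mdh2 held too few counts.

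The cells called Flcn KO came from mixed bone-marrow chimeras whose donor carried floxed Flcn alleles and a Cre recombinase driven by Foxp3 (Foxp3Cre Flcn fl/fl). The cells they were set against came from WT mixed chimeras. In both groups the cells were sorted from spleen as CD45.2+ CD45.1- CD4+ and Foxp3-YFP+, which takes cells of 1 congenic type that express a yellow fluorescent protein from Foxp3. Each group had 4 libraries that the labels call biological replicates. The Cre acts in cells that express Foxp3, cells of the other donor share the same host, and the labels give neither the age of the mice nor the exons that Cre removes.

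The deposited counts summed to 5111728, 3824571, 4101756 and 2723344 in Flcn KO replicates 1 to 4 and to 4914976, 4499889, 3986331 and 4122933 in WT replicates 1 to 4. At the start of the targeted gene, Flcn, a peak had 12.1, 15, 10.4 and 16.8 CPM (counts per library total, after TMM scaling of the totals) in Flcn KO and 12.5, 13.8, 18.9 and 20.2 CPM in WT (log2 fold change −0.28, 95% interval −0.73 to 0.18). A second peak beside it had a change of −0.57 (95% interval −1.20 to 0.06). Farther inside Flcn, a low peak at chr11:59798675-59798950 that was not tested had 16, 4, 8 and 16 counts in Flcn KO and 0, 2, 0 and 0 in WT. Another, at chr11:59799302-59799641, had 2, 9, 18 and 21 counts in Flcn KO and 0, 0, 2 and 0 in WT, so nearly all reads of both came from Flcn KO libraries. Whether any of the 4 peaks lies in the deleted stretch is not known, so they do not check the genotype. Of the marker genes of Treg cells, Foxp3, Il2ra, Ctla4, Ikzf2 and Tnfrsf18 all had peaks, as did the 5 T cell genes, while Ms4a1 and Cd79b of B cells and Lyz2, Csf1r and Adgre1 of myeloid cells had none. The 68 tested peaks at the Treg genes summed to between 1216 and 1438 CPM in Flcn KO and between 1165 and 1273 CPM in WT. The summed level of the 3 tested B cell peaks ran from 19.8 to 32.8 CPM in Flcn KO and from 19.9 to 29.9 CPM in WT. That of the 12 tested peaks at natural killer cell genes, which some T cells also use, ran from 260.0 to 339.5 CPM in Flcn KO and from 226.2 to 258.8 CPM in WT. That of the 5 erythroid marker peaks ran from 49.5 to 67.1 CPM in Flcn KO and from 34.9 to 38.8 CPM in WT. At an edgeR adjusted p below 0.05, 3 of the 12 natural killer peaks were called higher and 1 lower. So were 3 and 1 of the 68 Treg peaks, and 1 of the 5 erythroid peaks was called higher. Over all tested peaks 1.35% were called higher and 1.02% lower. The part of these marker differences in the results below was not tested. In such bulk samples, a change in the mix of cells and a change within each cell cannot be told apart.

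Glycolysis splits glucose into pyruvate, which is reduced to lactate or passed to the mitochondria, where the TCA cycle oxidises it. The pentose phosphate pathway branches off glucose 6-phosphate and makes NADPH and ribose phosphate for nucleotides. T cells raise glycolysis when activated, under MYC, HIF-1 and mTORC1, and Treg cells are known to rely more on mitochondrial oxidation than effector T cells do. Folliculin acts on lysosomes in amino acid signalling to mTORC1 and holds the transcription factors TFEB and TFE3 in the cytoplasm. These factors bind the E-box CACGTG, which MYC also binds, and the hypoxia factors HIF-1 and HIF-2 bind cores such as GACGTG.

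The promoter windows of 4 genes are printed because the results turn on their starts or because they carry these letters. Rpia has the changed distal peaks described next, Slc2a1 has the start peak with the lowest p among the members' starts, Ldha holds both words and Pgk1 has the highest accessibility per kb. Each window runs 5′ to 3′ from 250 bases before to 50 bases after the gene's start (RefSeq, GRCm38.p6, the assembly behind mm10). The positions are chr6:70792126-70792425 on the minus strand for Rpia, chr4:119108495-119108794 on the plus strand for Slc2a1, chr7:46845554-46845853 on the plus strand for Ldha and chrX:106186850-106187149 on the plus strand for Pgk1. Capitals mark CACGTG and GACGTG, the second also as its reverse complement CACGTC.
Rpia: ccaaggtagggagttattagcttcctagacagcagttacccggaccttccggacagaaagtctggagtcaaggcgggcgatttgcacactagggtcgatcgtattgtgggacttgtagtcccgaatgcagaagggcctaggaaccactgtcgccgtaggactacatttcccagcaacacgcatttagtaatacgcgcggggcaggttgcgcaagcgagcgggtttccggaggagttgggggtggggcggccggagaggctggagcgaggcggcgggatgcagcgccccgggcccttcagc
Slc2a1: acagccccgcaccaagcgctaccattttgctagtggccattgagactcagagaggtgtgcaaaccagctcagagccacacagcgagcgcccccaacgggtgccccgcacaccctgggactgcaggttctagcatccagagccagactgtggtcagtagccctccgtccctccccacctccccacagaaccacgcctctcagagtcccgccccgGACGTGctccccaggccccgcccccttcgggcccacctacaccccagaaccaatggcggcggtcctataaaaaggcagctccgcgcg
Ldha: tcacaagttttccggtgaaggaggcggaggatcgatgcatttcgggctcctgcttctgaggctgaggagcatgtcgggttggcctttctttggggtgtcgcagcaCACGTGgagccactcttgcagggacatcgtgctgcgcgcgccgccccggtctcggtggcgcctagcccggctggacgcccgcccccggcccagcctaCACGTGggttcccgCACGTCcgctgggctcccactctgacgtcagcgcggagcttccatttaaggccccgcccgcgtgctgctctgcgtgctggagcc
Pgk1: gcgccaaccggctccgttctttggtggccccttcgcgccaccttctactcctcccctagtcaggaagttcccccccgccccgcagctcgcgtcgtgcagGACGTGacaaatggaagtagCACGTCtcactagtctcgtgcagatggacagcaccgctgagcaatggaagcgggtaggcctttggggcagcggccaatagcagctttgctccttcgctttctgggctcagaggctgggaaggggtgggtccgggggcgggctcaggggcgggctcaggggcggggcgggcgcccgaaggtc
Each of these 4 windows was overlapped by a peak of its own gene. GACGTG or its complement begins 37 bases before the start of Slc2a1, 34 before that of Ldha, and 151 and 131 before that of Pgk1, while the 2 CACGTG words of Ldha begin 145 and 48 bases before its start. The Rpia window holds neither word. Such promoter rows were available for 33 of the 36 genes, and a peak overlapped at least 1 window of 32 of them (97.0%), against 49.9% of the 17492 protein-coding genes in the table. GACGTG, read on both strands, stood in the windows of 8 of the 33 genes (24.2%), namely Aldoa, Hk2, Ldha, Ogdh, Pgk1, Pkm, Slc16a3 and Slc2a1, and in 8.10% of the protein-coding genes. CACGTG stood in those of 4 (12.1%), Hif1a, Ldha, Ogdh and Pfkm, and in 8.91% of the protein-coding genes. For these shares and the peak share above, a gene counts if any of its windows qualifies. The 33 members had 51 windows, and the 17492 protein-coding genes had 21263. Per window, GACGTG stood in 21.6% for the members and 7.17% for the protein-coding genes, and CACGTG in 11.8% and 7.84%. The Pkm windows with GACGTG and the Pfkm windows with CACGTG were overlapped by no peak. The median GC content of the windows was 60.7% for the members and 56.3% for all protein-coding genes. TCACGTGA, the core of the CLEAR element of lysosomal genes, stood in 0 of the 33 and in 1.41% of the protein-coding genes. These are counts of letters in the windows and not of bound sites.

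Across the 131 tested peaks, 3 rose, 1 fell and 127 did not pass the test (edgeR quasi-likelihood test, Benjamini-Hochberg adjustment over all 47859 tested peaks, called at an adjusted p below 0.05). Over all tested peaks 1.35% were called higher and 1.02% lower. All 3 higher peaks were given to Rpia, and the lower one to Myc. An unadjusted p below 0.05 was reached by 10 of the 131 member peaks, 4 higher and 6 lower, which is 7.63% beside 12.9% of all tested peaks (6.87% higher and 5.99% lower). The median log2 fold change, Flcn KO over WT, was −0.04 over the member peaks and 0.00 over all tested peaks, and 62 of the 131 lay above 0. The libraries of the groups did not overlap at 9 member peaks, 3 higher and 6 lower in Flcn KO, beside 7.59% of all tested peaks (4.03% higher and 3.56% lower). At 95 of the 131 peaks the 95% interval of the change excluded a 2-fold change either way, against 63.9% of all tested peaks. Without the 12 Rpia peaks, the median of the other 119 was −0.01. The plot of log2 fold changes by pathway shows the 3 Rpia peaks standing apart from a field centred near 0.

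**Figure D1:**
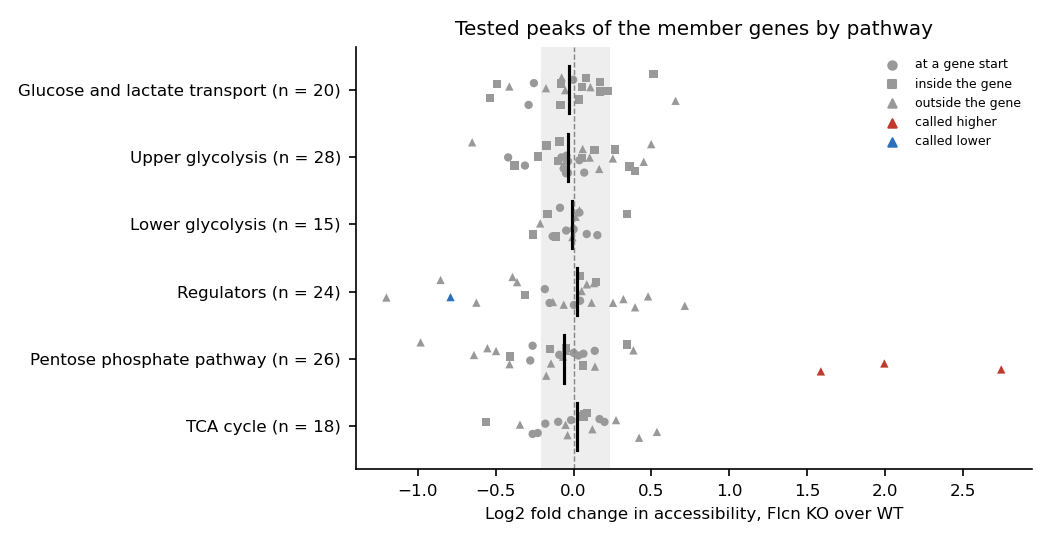
Log2 fold change in accessibility (Flcn KO over WT) of the 131 tested peaks, by pathway; each symbol is 1 peak, its shape gives its place, red and blue mark called peaks, black bars are group medians, and the grey band and dashed line are the interquartile range and median of all 47859 tested peaks. The 3 called higher peaks, all near Rpia, lie at 1.59, 2.0 and 2.75, and the called lower peak, near Myc, at −0.79.

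Rpia encodes ribose 5-phosphate isomerase, which interconverts ribulose and ribose phosphates in the non-oxidative pentose phosphate pathway. Its gene start lies at the high-coordinate end of its span on chromosome 6 (70765720 to 70792175, mm10), and the 3 changed peaks lie upstream of it, between 21787 and 23356 bp away, within 1895 bp of each other from end to end. The first, at chr6:70813962-70814384, had 49.7, 50.2, 38.0 and 35.8 CPM in Flcn KO replicates 1 to 4, against 10.8, 12, 21.9 and 13.8 CPM in WT replicates 1 to 4. Every Flcn KO library was above every WT library, and the peak was 3.01-fold higher (log2 fold change 1.59, SE 0.19, adjusted p = 1.07e-06 by edgeR). The second, at chr6:70814686-70814945, had 7.43, 11.2, 9.94 and 10.3 CPM in Flcn KO, against 4.57, 0.892, 1.53 and 2.46 CPM in WT. Its groups did not overlap either, but it held few reads in WT, at 22, 4, 6 and 10 counts (log2 fold change 2.0, SE 0.37, adjusted p = 0.0011 by edgeR). The third, at chr6:70815531-70815856, had 25, 18.7, 26.9 and 13.7 CPM in Flcn KO, against 1.66, 3.57, 6.12 and 1.48 CPM in WT. It was 6.71-fold higher, the largest change among the member peaks (log2 fold change 2.75, SE 0.32, adjusted p = 1.18e-06 by edgeR). Summed, the 3 peaks gave 74.2 ± 10.1 CPM in Flcn KO and 20.2 ± 6.27 CPM in WT (SD, n = 4 each).

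The other side of these peaks is bounded by Eif2ak3, which encodes the stress kinase PERK and starts 28628 to 30100 bp beyond them, so the assignment to Rpia is by a margin of 5272 to 8313 bp. A peak between them and Eif2ak3, at chr6:70824466-70825437, had 106.5 ± 12.8 CPM in Flcn KO and 97.5 ± 5.40 CPM in WT (SD, n = 4 each; log2 fold change 0.13, adjusted p = 0.679 by edgeR). The start peak of Eif2ak3 had 326.5 ± 28.5 CPM in Flcn KO and 337.8 ± 16.5 CPM in WT (log2 fold change −0.05, 95% interval −0.21 to 0.11). Farther on, inside Eif2ak3, a weak peak at chr6:70862651-70863084 had 10.9, 11.2, 7.96 and 6.48 CPM in Flcn KO, against 2.91, 4.02, 3.06 and 4.92 CPM in WT. That peak was called higher too, with groups that did not overlap (log2 fold change 1.31, SE 0.32, adjusted p = 0.0158 by edgeR). At a pair of peaks beyond it inside Eif2ak3 every Flcn KO library was also above every WT library, without passing the test. The one at chr6:70871541-70871791 had 10.5 ± 2.46 CPM in Flcn KO and 6.05 ± 1.48 CPM in WT (SD, n = 4 each; log2 fold change 0.81, adjusted p = 0.150 by edgeR), and the one at chr6:70872090-70872636 had 90.2 ± 1.74 CPM in Flcn KO and 76.5 ± 6.73 CPM in WT (log2 fold change 0.24, adjusted p = 0.294 by edgeR). At the start of Rpia itself, the peak at chr6:70791876-70792461 had 114.8, 112.2, 98.2 and 135.6 CPM in Flcn KO, against 129.1, 122.7, 143.3 and 156.5 CPM in WT. These groups overlap, and the log2 fold change of −0.26 (SE 0.10, unadjusted p = 0.0145) had an edgeR adjusted p of 0.214. The 9 tested Rpia peaks other than the 3 called ones had log2 fold changes from −0.98 to 0.14, none of them called. Summed over those 9 peaks, the level ran from 168.8 to 203.5 CPM in Flcn KO and from 210.6 to 254.6 CPM in WT. These sums did not overlap, with Flcn KO lower, but the 9 were picked by leaving out the peaks called higher. The plot of the region between Rpia and Eif2ak3 shows the 3 neighbouring distal peaks as the only single peaks on the Rpia side where the groups separate.

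**Figure D2:**
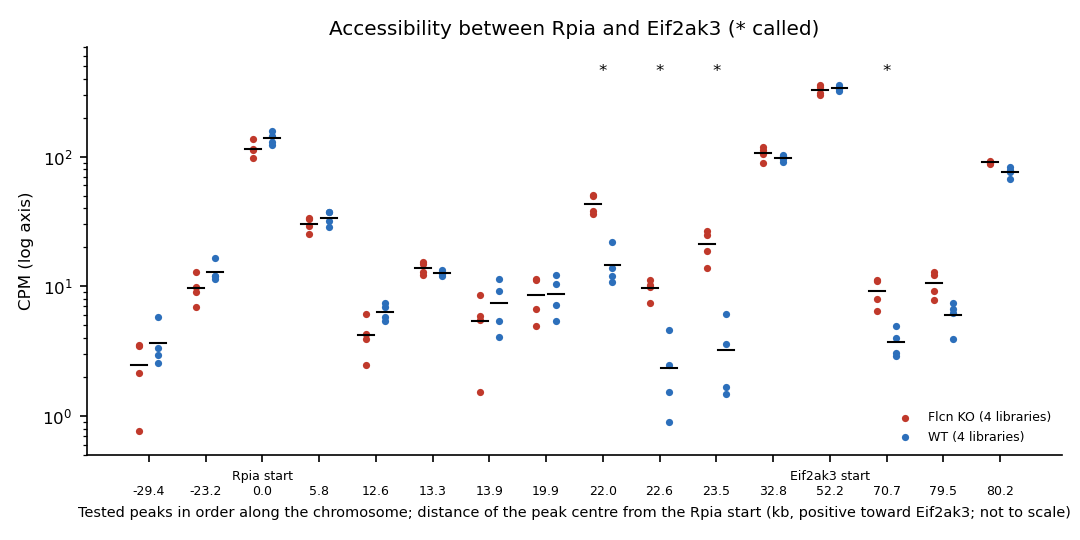
CPM (log axis) of each tested peak from beyond the far end of Rpia to inside Eif2ak3, in chromosome order and not to scale (1 Rpia peak farther out is not drawn); points are libraries, black bars are means, numbers are the distance of the peak centre from the Rpia start in kb, and asterisks mark called peaks. At the 3 called peaks near Rpia the Flcn KO libraries lie above all WT libraries; the fourth asterisk is a peak inside Eif2ak3 (log2 fold change 1.31).

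No gene-start peak of the members passed the test. A start peak overlaps a start listed by RefSeq or lies within 1000 bp of it; for Slc2a3, Myc and Idh3a, either end of the gene's span was used. Of 38 tested start peaks, at 34 genes, 0 were called by edgeR, 0 by DESeq2 and 0 by limma-voom, and 3 had an unadjusted p below 0.05. Over all 11981 tested start peaks, 0.259% were called higher and 0.267% lower, and 7.39% had an unadjusted p below 0.05 (2.55% higher and 4.83% lower). All 3 of the members' were lower in Flcn KO, at Slc2a1, Rpia and Idh3a. The groups did not overlap at 3 start peaks, all lower in Flcn KO, at Slc2a1, Tkt and Idh3a, beside 4.96% of all start peaks (1.56% higher and 3.4% lower). The median log2 fold change was −0.05 over the 38 and −0.04 over all start peaks, and 14 of the 38 lay above 0. No start peak's 95% interval passed a 2-fold change; the one that came nearest, at Aldoc, ended just short of it, at −1.0 on the log2 scale. Over all start peaks, 86.2% had an interval inside a 2-fold change. When the start peaks of a pathway were summed, the transporters gave 91.9 ± 5.99 CPM in Flcn KO and 111.3 ± 11.1 CPM in WT, with Flcn KO libraries at 86.9 to 99.3 and WT libraries at 96.8 to 121.9 CPM, and most of this sum is the Slc2a1 start. The other sums overlapped as well: upper glycolysis gave 389.8 ± 21.6 CPM in Flcn KO and 397.2 ± 21.5 CPM in WT, lower glycolysis 484.5 ± 40.4 CPM in Flcn KO and 468.3 ± 28.7 CPM in WT. The regulators' starts gave 187.1 ± 15.3 CPM in Flcn KO and 193.7 ± 11.9 CPM in WT. The pentose phosphate starts gave 372.1 ± 37.4 CPM in Flcn KO and 392.4 ± 27.9 CPM in WT, and the TCA cycle starts 389.8 ± 25.3 CPM in Flcn KO and 407.3 ± 22.3 CPM in WT (SD, n = 4 each). The start peak of G6pdx also holds the start of Ikbkg, so the reads of these genes' starts cannot be separated there.

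Per kb of peak, the start peaks differed widely in level. Pgk1, which encodes phosphoglycerate kinase, stood highest with 401.0 CPM per kb in Flcn KO and 359.5 CPM per kb in WT. By the Flcn KO means, Fh1, the fumarase gene, followed with 316.8 in Flcn KO and 319.8 in WT on the same scale, then Rpe, an epimerase gene of the pentose phosphate pathway, with 199.3 in Flcn KO and 190.0 in WT. Slc16a3, which encodes the lactate exporter MCT4, stood lowest, with 13.1 CPM per kb in both groups. The plot of start-peak levels shows the libraries of both groups side by side.

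**Figure D3:**
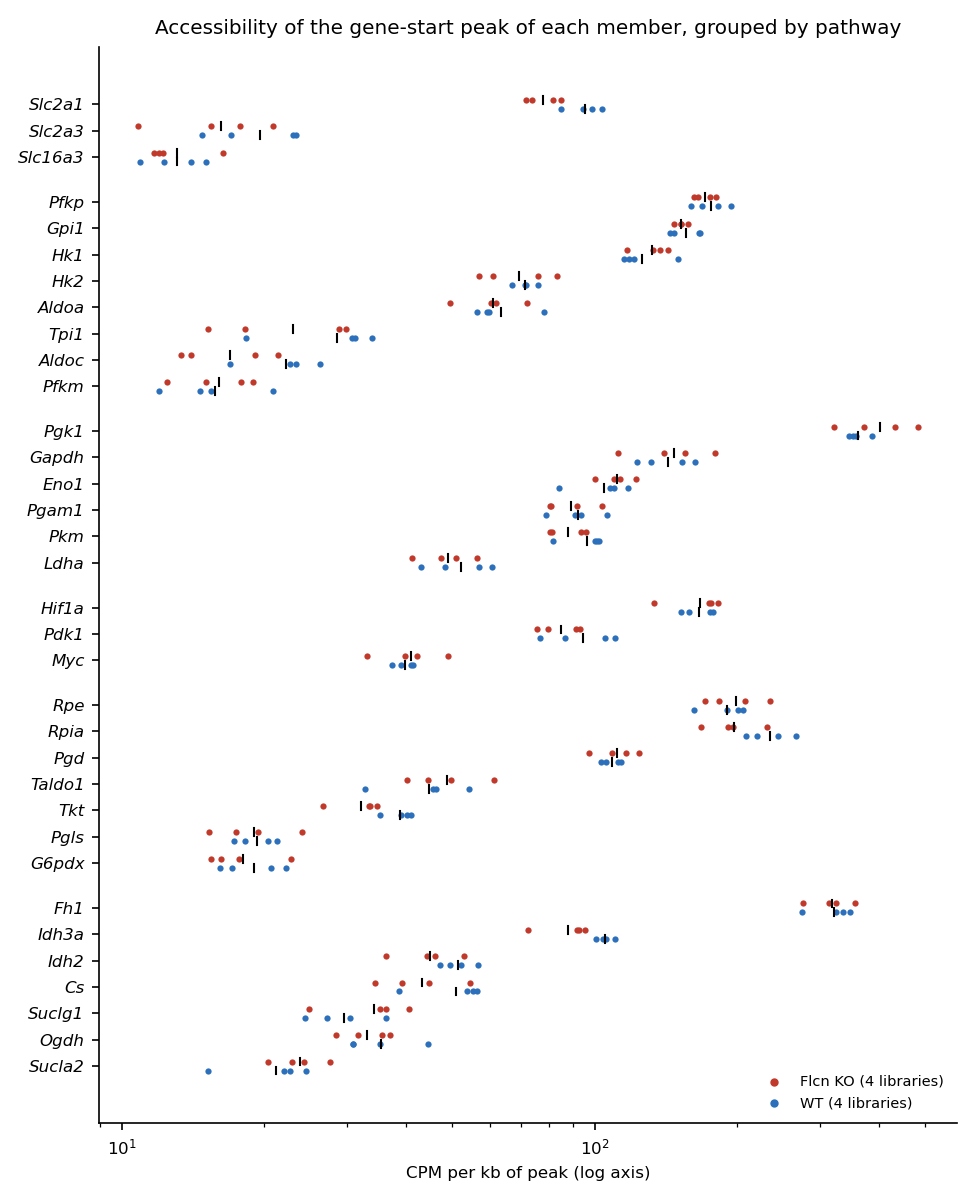
Accessibility at the gene-start peak with the highest level of each of the 34 members, in CPM per kb of peak (log axis), by pathway from transport (top) to the TCA cycle (bottom); each point is 1 library, and black bars are means. The levels span 13.1 to 401.0 CPM per kb in Flcn KO and 13.1 to 359.5 in WT, and the groups overlap at all but Slc2a1, Idh3a and Tkt.

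Among the transporters, 0 of 20 peaks were called and the median log2 fold change was −0.03. Slc2a1 encodes GLUT1, the main glucose importer of activated T cells. Its start peak, at chr4:119108541-119109470, had 75.9, 78.8, 66.6 and 68.6 CPM in Flcn KO, against 91.7, 79.0, 96.4 and 87.8 CPM in WT. The groups did not overlap, although Flcn KO replicate 2 and WT replicate 2 nearly met, and the log2 fold change of −0.29 (SE 0.11, unadjusted p = 0.0100, adjusted p = 0.176 by edgeR) did not pass. A peak 2584 bp upstream of the Slc2a1 span had 84.2 ± 5.41 CPM in Flcn KO and 87.4 ± 4.90 CPM in WT (SD, n = 4 each). Slc2a3, which encodes the high-affinity importer GLUT3, had 10 tested peaks with log2 fold changes from −0.54 to 0.51. One of them, inside the gene at chr6:122764221-122765011, had 16.8, 11.8, 16.4 and 16 CPM in Flcn KO, against 17.6, 22.3, 24.5 and 21.6 CPM in WT. Its groups did not overlap, but the change of −0.49 (SE 0.20) had an edgeR adjusted p of 0.231. The strongest Slc2a3 peak, 7963 bp outside the span, had 264.8 ± 16.3 CPM in Flcn KO and 279.2 ± 12.5 CPM in WT (SD, n = 4 each), with a 95% interval of the log2 fold change of −0.24 to 0.09. Another Slc2a3 peak, at chr6:122758753-122759116, had a change of −0.54 (adjusted p = 0.389 by edgeR) and was called lower only when Flcn KO replicate 1 was left out. The 3 peaks of Slc16a3 ran from −0.41 to 0.17.

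Upper glycolysis carries glucose to the triose phosphates. Of its 28 tested peaks 0 were called, 0 reached an unadjusted p below 0.05 and 0 had groups that did not overlap, with DESeq2 and limma-voom also calling 0 of them. Hk1 and Hk2 encode hexokinases, which trap glucose in the cell as its phosphate. The start peak of Hk1 had 102.0 ± 8.63 CPM in Flcn KO and 97.2 ± 12.3 CPM in WT, and that of Hk2 had 30.3 ± 5.40 CPM in Flcn KO and 31.2 ± 1.61 CPM in WT (SD, n = 4 each). The log2 fold changes of the 7 Hk2 peaks ran from −0.17 to 0.50. Pfkp and Pfkm encode the platelet and muscle types of phosphofructokinase, the committed step. Pfkp held 9 tested peaks, 3 of which averaged from 95.5 to 123.7 CPM in Flcn KO and from 102.2 to 119.3 CPM in WT, while the single Pfkm peak averaged 8.96 CPM in Flcn KO and 8.77 CPM in WT. Gpi1, the glucose phosphate isomerase gene, had 65.4 ± 1.82 CPM in Flcn KO and 67.1 ± 5.13 CPM in WT at its only peak (95% interval of the log2 fold change −0.26 to 0.19). The aldolase genes differed in level: the start peak of Aldoa had 39.8 ± 6.02 CPM in Flcn KO and 41.4 ± 6.49 CPM in WT, that of Aldoc 6.64 ± 1.54 CPM in Flcn KO and 8.72 ± 1.52 CPM in WT. Tpi1, the triose phosphate isomerase gene, had 2 start peaks with log2 fold changes of −0.31 and −0.08.

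Lower glycolysis carries the triose phosphates to pyruvate and lactate. Of its 15 tested peaks 0 were called by edgeR, DESeq2 or limma-voom, 0 reached an unadjusted p below 0.05 by edgeR, and the log2 fold changes ran from −0.26 to 0.34. Gapdh, the gene of the dehydrogenase that feeds electrons to NAD, had 65.6 ± 12.6 CPM in Flcn KO and 63.6 ± 8.35 CPM in WT at its start. Pgk1 had 212.1 ± 37.4 CPM in Flcn KO and 190.2 ± 9.70 CPM in WT (log2 fold change 0.15, 95% interval −0.05 to 0.35). Pgam1, Eno1 and Pkm, which encode phosphoglycerate mutase, enolase and pyruvate kinase, had start-peak changes of −0.05, 0.08 and −0.13. Ldha, which encodes the lactate dehydrogenase subunit that makes lactate, had 41.3 ± 5.42 CPM in Flcn KO and 44.0 ± 6.78 CPM in WT at the start whose window is printed above. The second Ldha start, downstream, had 10.8 ± 3.54 CPM in Flcn KO and 11.0 ± 2.02 CPM in WT (SD, n = 4 each for all of these).

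Among the 24 peaks of the regulators 1, near Myc, fell, and no other was called by edgeR or DESeq2. Myc encodes the transcription factor that drives glycolytic genes when T cells enter growth. The called peak, at chr15:61981450-61981780 and 3561 bp from the gene's low-coordinate end, had 10.2, 11.8, 11.4 and 8.38 CPM in Flcn KO, against 17.6, 23.2, 17.3 and 14.5 CPM in WT. Every Flcn KO library was below every WT library, and the level was 0.578 times that of WT (log2 fold change −0.79, SE 0.22, adjusted p = 0.0452 by edgeR). The call was narrow: it ended under limma-voom and when any 1 of WT replicates 1 to 3 or Flcn KO replicates 1 to 4 was left out (adjusted p up to 0.239, log2 fold change from −0.88 to −0.65 over all alternatives). Its neighbour 1670 bp from the gene had 36.8 ± 9.96 CPM in Flcn KO and 33.1 ± 4.65 CPM in WT (SD, n = 4 each; log2 fold change 0.13). The peak at the gene end had 30.8 ± 4.93 CPM in Flcn KO and 29.8 ± 1.42 CPM in WT (SD, n = 4 each; log2 fold change 0.04). Of the 8 tested Myc peaks, 4 lay above 0.

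Hif1a encodes the oxygen-regulated subunit of HIF-1. It had 13 tested peaks, none called, with log2 fold changes from −1.20 to 0.71. Its main start peak had 89.3 ± 12 CPM in Flcn KO and 89.0 ± 6.71 CPM in WT (SD, n = 4 each; 95% interval of the log2 fold change −0.22 to 0.22). A peak 12861 bp outside the Hif1a span, at chr12:73887960-73888463, had 34.8, 39.5, 30.3 and 38.5 CPM in Flcn KO, against 14.9, 29.0, 35.7 and 29.5 CPM in WT. The groups overlap, and WT replicate 1 lies below the other 7 libraries. The log2 fold change was 0.39 (SE 0.19, adjusted p = 0.358 by edgeR), and 0.18 without WT replicate 1 (adjusted p = 0.749 by edgeR). Pdk1, whose kinase keeps pyruvate out of the TCA cycle, had 54.8 ± 5.59 CPM in Flcn KO and 61.2 ± 10.2 CPM in WT at its start, and the changes of its 3 peaks ran from −0.15 to 0.32.

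**Figure D4:**
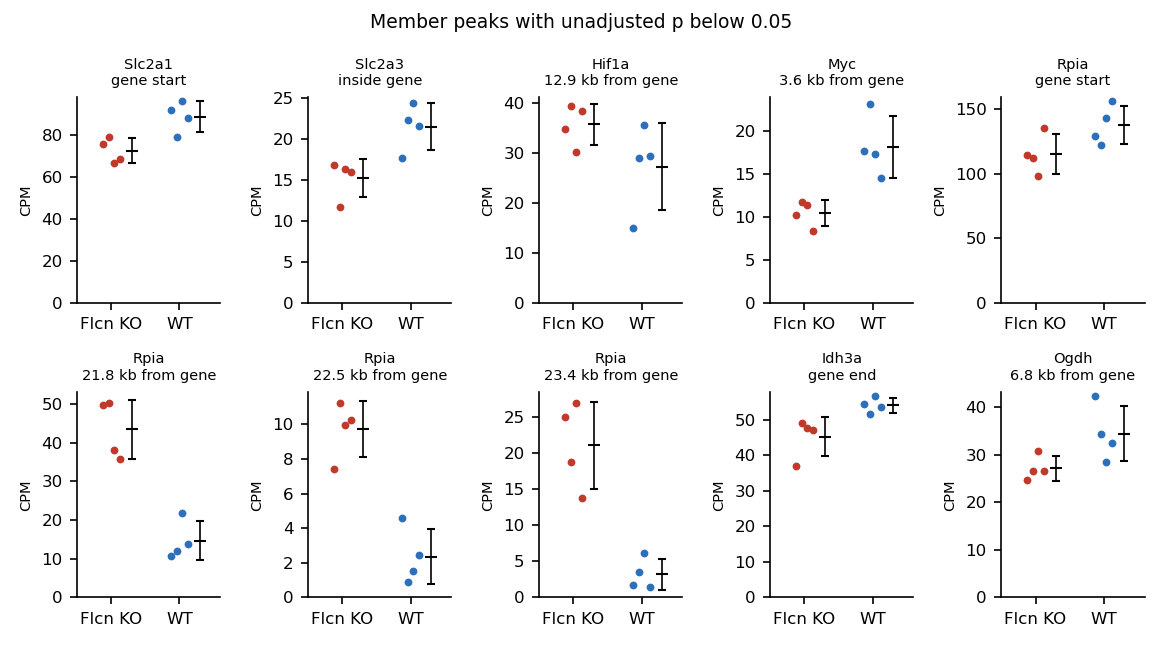
CPM of every library at the 10 member peaks with an unadjusted p below 0.05, with mean ± SD beside the points; each panel is 1 peak, with its place relative to its gene, Flcn KO left of WT. The 3 distal Rpia peaks and the Myc peak passed the adjusted threshold, and the other 6 did not, with adjusted p from 0.176 to 0.365.

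In the pentose phosphate pathway, the 3 called peaks upstream of Rpia were the only ones of 26 to pass, and the median log2 fold change was −0.06. The oxidative branch begins with G6pdx, which encodes glucose 6-phosphate dehydrogenase, and runs through Pgls and Pgd. Its start peaks had 19.9 ± 3.63 CPM in Flcn KO and 21.0 ± 3.20 CPM in WT at G6pdx, 15.2 ± 2.97 CPM in Flcn KO and 15.4 ± 1.47 CPM in WT at Pgls, and 51.1 ± 5.23 CPM in Flcn KO and 49.8 ± 2.29 CPM in WT at Pgd (SD, n = 4 each). A weak peak 5190 bp outside Pgd had groups that did not overlap, with 5.86 ± 1.40 CPM in Flcn KO and 8.75 ± 1.29 CPM in WT, but its log2 fold change of −0.55 had an edgeR adjusted p of 0.428. In the non-oxidative branch, the start of Rpe had 124.2 ± 17.6 CPM in Flcn KO and 118.4 ± 12.05 CPM in WT. Tkt, which encodes transketolase, had 25.2 ± 2.89 CPM in Flcn KO and 30.5 ± 2.03 CPM in WT at its start; its groups did not overlap and its change of −0.28 did not pass (adjusted p = 0.492 by edgeR). Taldo1, which encodes transaldolase, had 21.3 ± 3.97 CPM in Flcn KO and 19.5 ± 3.88 CPM in WT.

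In the TCA cycle, 0 of 18 tested peaks were called by edgeR, by DESeq2 or by limma-voom, and 2 had an unadjusted p below 0.05, both lower. Idh3a encodes a subunit of the NAD-linked isocitrate dehydrogenase. Its only peak, at chr9:54586108-54586622 on a gene end, had 37.1, 49.2, 47.7 and 47.2 CPM in Flcn KO, against 54.4, 51.8, 56.9 and 53.6 CPM in WT. The groups did not overlap, and Flcn KO replicate 1 stood below the other Flcn KO libraries (log2 fold change −0.26, SE 0.13, adjusted p = 0.365 by edgeR; −0.17 without that library). Ogdh encodes the 2-oxoglutarate dehydrogenase that makes succinyl-CoA. A peak 6765 bp outside it, at chr11:6365859-6366307, had 24.6, 26.7, 30.8 and 26.7 CPM in Flcn KO, against 42.3, 34.4, 28.6 and 32.5 CPM in WT. These groups overlap (log2 fold change −0.34, SE 0.16, adjusted p = 0.340 by edgeR), and the change was −0.23 without WT replicate 1. The start peak of Ogdh had a log2 fold change of −0.10 (95% interval −0.38 to 0.19). Cs, the citrate synthase gene, had 29.4 ± 5.92 CPM in Flcn KO and 34.8 ± 5.69 CPM in WT at its start, and Idh2, the gene of the NADP-linked mitochondrial isocitrate dehydrogenase, 29.2 ± 4.43 CPM in Flcn KO and 33.4 ± 2.73 CPM in WT. The succinyl-CoA ligase genes Suclg1 and Sucla2 had start-peak changes of 0.20 and 0.17. Fh1, the second highest start per kb, had 199.3 ± 20.7 CPM in Flcn KO and 201.2 ± 19.7 CPM in WT, with a 95% interval of the log2 fold change of −0.20 to 0.17. The window at the start of Mdh2, a malate dehydrogenase gene, is covered by a peak given to its neighbour Styxl1, which had 77.5 ± 8.18 CPM in Flcn KO and 81.4 ± 7.57 CPM in WT (SD, n = 4 each; log2 fold change −0.07).

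When all counts of a gene's peaks were summed and tested gene by gene over 13491 genes, 0 of the 35 member genes were called by edgeR (adjusted p at least 0.366), 0 by DESeq2 and 0 by limma-voom, and 1, Idh3a, had an unadjusted p below 0.05. Over all genes 1.16% were called higher, 0.675% lower and 1.84% in either direction, and 12.7% had an unadjusted p below 0.05. The median log2 fold change of the 35 sums was −0.02, and over all genes it was within 0.01 of 0. The interval of 34 of the 35 sums lay inside a 2-fold change, the exception being Mdh2, whose sum was very low. For Rpia the sum was 282.3 ± 16.5 CPM in Flcn KO and 261.1 ± 18.2 CPM in WT (SD, n = 4 each; log2 fold change 0.11, SE 0.08), over all 13 of its peaks, the untested one included.

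Of 73 other genes of these pathways, 62 had tested peaks. Among their 209 tested peaks, 8 were called higher, 0 lower, and the median log2 fold change was −0.01. Over all tested peaks the called shares were 1.35% higher and 1.02% lower. An unadjusted p below 0.05 was reached by 17 higher and 10 lower ones, which is 12.9% and equals the 12.9% of all tested peaks. Of the 8 called peaks, 3 belong to Bhlhe40, which was listed as a glucose response regulator, and the other 5 to genes of enzymes or their subunits. By list, called peaks were 2 of 68 for glycolysis and 0 of 16 for the pentose phosphate pathway. They were 3 of 74 for the TCA cycle and pyruvate entry and 3 of 51 for the regulators. The lists were chosen with earlier results of these data known, so these counts do not measure an excess over all peaks. Pgm1, which encodes the phosphoglucomutase that links glycogen to glycolysis, had 2 of the 8 called peaks, both inside the gene. The one at chr4:99944630-99945350 had 30.1, 18.4, 11.4 and 16.8 CPM in Flcn KO, against 2.91, 4.02, 7.39 and 2.95 CPM in WT (log2 fold change 2.18, SE 0.31, adjusted p = 3.07e-05 by edgeR). The other, at chr4:99942040-99942542, had 23.2 ± 4.44 CPM in Flcn KO and 12.4 ± 3.73 CPM in WT (SD, n = 4 each; log2 fold change 0.92, SE 0.22, adjusted p = 0.0122 by edgeR), and its call ended without WT replicate 1 or WT replicate 4 (adjusted p up to 0.0716). The groups did not overlap at either peak.

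Me2, which encodes the mitochondrial malic enzyme that turns malate into pyruvate, had a peak inside the gene on chromosome 18 (73792522 to 73792860). It had 9.39, 10.7, 14.9 and 11.4 CPM in Flcn KO, against 2.49, 1.78, 1.02 and 1.97 CPM in WT, from 12, 8, 4 and 8 counts in WT. It was called in all 18 refits (log2 fold change 2.64, SE 0.34, adjusted p = 4.71e-06 by edgeR). A peak 3335 bp from Pdhx, which encodes a component of the pyruvate dehydrogenase complex, had 7.49 ± 2.23 CPM in Flcn KO and 2.52 ± 0.369 CPM in WT (SD, n = 4 each; log2 fold change 1.54, SE 0.37, adjusted p = 0.014 by edgeR). A peak inside Sdhb, a succinate dehydrogenase subunit gene, had 6.47 ± 2.12 CPM in Flcn KO and 2.03 ± 0.368 CPM in WT (log2 fold change 1.64, SE 0.41, adjusted p = 0.0178 by edgeR). Both rest on few reads, and each was tested in only 16 of the 18 refits. Their calls ended under limma-voom and without Flcn KO replicate 2 or Flcn KO replicate 3, and for Sdhb also without WT replicate 2 (adjusted p up to 0.0704 and 0.0992). Bhlhe40 encodes a basic helix-loop-helix repressor that also binds CACGTG. It had the other 3 called peaks, of which the one over a gene end (chr6:108660123-108660826) had 178.9, 187.3, 224.5 and 205.0 CPM in Flcn KO, against 88.6, 88.3, 73.4 and 75.5 CPM in WT (log2 fold change 1.28, SE 0.10, adjusted p = 3.84e-11 by edgeR). The neighbouring peak, at chr6:108659187-108659822, lies 807 bp outside the Bhlhe40 span, and which end is the gene's start was not available. It had 85.0 ± 5.65 CPM in Flcn KO and 42.7 ± 2.54 CPM in WT (SD, n = 4 each; log2 fold change 0.99), and these groups were likewise apart. The peak 37819 bp away had overlapping groups and a change of 1.09, and its call ended without Flcn KO replicate 1 or 4 or WT replicate 2 or 4 (adjusted p up to 0.0905).

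**Figure D5:**
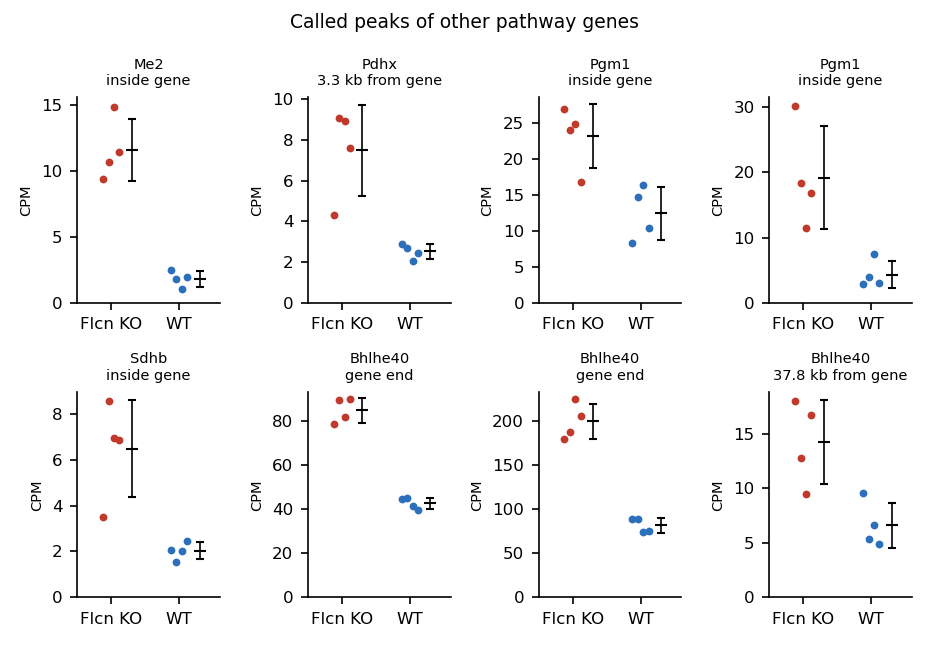
CPM of every library at the 8 called peaks of the other pathway genes, with mean ± SD beside the points, Flcn KO left of WT; each panel is 1 peak with its place relative to its gene. All 8 are higher in Flcn KO, and the groups do not overlap at 7 of them, the exception being the distal Bhlhe40 peak.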

How the data were processed

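ATAC-seq counts from 4 Flcn KO and 4 WT libraries were used, grouped by their labels. The authors deposited raw counts per peak and library in mm10, with no normalization; the tools listed are bedtools 2.25.0, MACS2 2.1.1, Trimmomatic 0.36, Picard 2.9.4, BWA 0.7.16 and SAMtools 1.9, per the submitters' processing notes. Their roles, the handling of duplicates, any shift for the transposase and any pooling for peak calling are not stated there. Between 88.7% and 92.7% of the deposited counts were even, so both ends of most pairs appear to be counted, and precision rests on the replicate spread.

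Peak starts were shifted by 1 to count from 1. Peaks went to the nearest of 21887 protein-coding genes (RefSeq, GRCm38.p6), ties to the nearest gene end. Exons and introns were not used here. Low peaks were removed by filterByExpr (minimum count of 10), which kept 47859 of 57199 peaks. TMM scaling and edgeR's quasi-likelihood test (edgeR 4.0.16, limma 3.58.1, DESeq2 1.42.0, R 4.3.3) compared the groups, with genotype as the only term and p-values adjusted over all tested peaks. CPM values are TMM-scaled; SE is the change divided by the root of F; intervals are 95%. The code was tested on simulated data. Between libraries of a group the chi-square per peak was 2.18 to 3.56, so no library was counted as a copy.

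Named peaks are those called or with unadjusted p below 0.05, the highest start peak of each gene, and called peaks of the other pathway lists; other peaks are named as neighbours or chosen after their values were seen. The members and lists were chosen with earlier results of these data known. Alternatives covered scaling, filter, dispersion, test, halved counts, replicate block, gene distance and leaving out each library.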

Additional observations from a re-analysis of the deposited data

Results flagged for a closer look

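Among the named peaks, 98 sets of 4 libraries were examined for 1 library far from the other 3 of its group, which chance gives in about 5% of sets, and 8 were found. In Flcn KO, replicate 2 was low at the Slc2a3 peak at 122764221 (11.8 CPM, the others 16 to 16.8) and high at the Slc16a3 start (5.34, others 3.81 to 3.98). Flcn KO replicate 1 was low at Idh3a (37.1, others 47.2 to 49.2) and at the Hif1a start (71.6, others 93.5 to 97.8), and Flcn KO replicate 3 at the Tkt start (20.9, others 26.2 to 27.3). In WT, replicate 1 was high at the Aldoa start (51.1, others 36.9 to 39.0), and replicate 2 was low at the starts of Pkm (57.1, others 69.9 to 71.3) and Cs (26.3, others 36.7 to 38.4).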

How the results depend on the processing

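The 3 called Rpia peaks were called in each of the 18 refits, with log2 fold changes of 1.46 to 1.84, 1.71 to 2.56 and 2.52 to 3.23. With genes assigned only within 10000 bp the count of higher member peaks was 0, since these peaks lie farther from Rpia. The count of lower peaks was 0 under limma-voom and ran from 0 to 1 over the fits that leave out 1 library each; without Flcn KO replicate 1 the lower peak was one of Slc2a3 (start 122758753) and not that of Myc. The median change of the member peaks was −0.035, and ran from −0.038 to −0.0057 without 1 library, the last without WT replicate 4. Called gene sums stayed at 0 under every alternative. The 6 other member peaks with an unadjusted p below 0.05 kept their direction and were not called in any refit. Same-numbered libraries did not deviate together (correlations −0.05 to 0.08), so the numbers were not taken as pairs; with the replicate block the median was −0.027, 3 member peaks were higher and 1 lower, and calls over all peaks were 736 higher and 639 lower, beside 644 and 489. Over all peaks, calls without WT replicate 2 were 448 higher and 217 lower, and without Flcn KO replicate 1 863 higher and 934 lower. The 4 scalings moved the median of all peaks by less than 0.01. Peaks with few reads, such as the second Rpia peak, Pdhx and Sdhb, are limited by depth.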
